A study of Mus musculus with 6 samples.

Results

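Expression of complement, coagulation and fibrinolysis genes was compared between the wasting fat of cachectic mice and the fat of control mice. The genes are 33 chosen by name, 21 of complement and 12 of coagulation and fibrinolysis, out of 54532 genes in the count table. Of these, 32 passed the filter on low counts and were tested among 16003 genes, and Cfi was not tested. The tissue was epididymal white fat (eWAT), a visceral depot, harvested from 3 cachectic mice and 3 control mice on day 21. All were male C57BL/6 mice, 6 to 10 weeks old. Cachexia was induced by subcutaneous inoculation of Lewis lung carcinoma (LLC) cells, a transplanted mouse lung cancer line, and the control mice had no tumor. RNA was sequenced from the whole fat pad, so each value is a sum over adipocytes, vessels, connective tissue and immune cells.

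Complement is a cascade of plasma and cell-surface proteins that tags particles and cells for uptake and, at its end, inserts a pore into membranes. The classical pathway starts when C1q binds a target and its proteases C1r and C1s cleave C4 and C2. The alternative loop, driven by factor B, factor D and properdin, amplifies the deposition of C3. Coagulation starts when tissue factor meets plasma factors, ends in a fibrin clot, and is checked by tissue factor pathway inhibitor, thrombomodulin and the protein C receptor. Plasminogen activators dissolve the clot. Most circulating components come from the liver, but fat is a known source of factor D, also called adipsin, and of C3, and macrophages are the usual source of C1q.

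Of the 32 tested members, 6 passed the threshold in cachectic mice, an adjusted p-value under 0.05 in edgeR's quasi-likelihood test with Benjamini-Hochberg adjustment over all 16003 genes. Expression of C4b and C5ar1 was upregulated, and that of C2, C6, C7 and Thbd was downregulated. These 6 are 18.8% of the members tested, beside 17.6% of all genes tested, so the list as a whole was called about as often as the background. In the upward direction 2 members (6.25%) were called, beside 9.0% of all genes, and in the downward direction 4 members (12.5%), beside 8.63%. The groups did not overlap in 9 members (28.1%), beside 40.5% of all genes. The median log2 fold change was -0.080 over the members and -0.0031 over all genes tested, and 11 members (34.4%) had an unadjusted p-value under 0.05, as did 34.4% of all genes. Without control 3, 0 members rose and 1 fell, without control 2, 0 rose and 3 fell, and without cachexia 1, 1 rose and 5 fell. Calls over all genes tested were also fewer in these fits than the 2821 of 16003 with all samples. They numbered 828 of 16502 without control 3, 1312 of 16576 without control 2 and 2017 of 16631 without cachexia 1. Complement held 5 of the 6 calls, among 20 tested genes, and coagulation and fibrinolysis held 1 among 12.

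**Figure D1:**
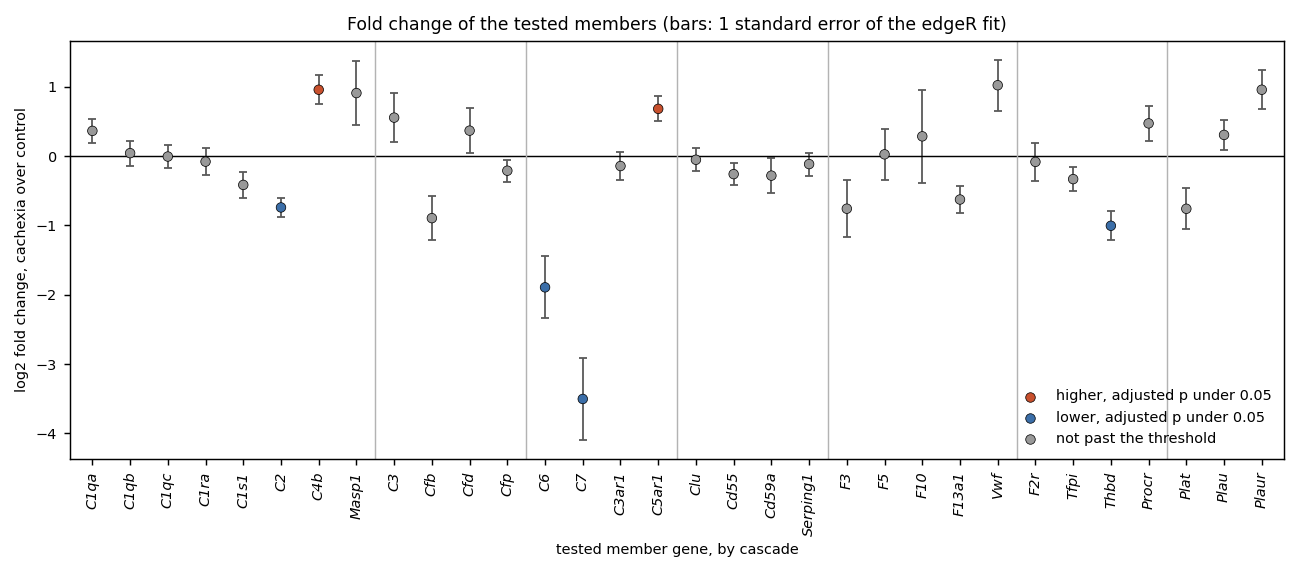
Log2 fold change of cachectic over control mice for the 32 tested members, ordered by cascade (3 mice per group). Points are edgeR estimates, bars 1 standard error, and colors mark the direction of the 6 that passed the threshold. The widest departure from 0 is that of C7, at -3.50.

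The total count per sample lay between 14928766 and 18855546, and each cachectic sample was below each control sample. A level in CPM is a count scaled to the library size after TMM normalization, and levels of different genes are compared as the deposited FPKM, which also divides by gene length. On principal components of log2 CPM, the first component separated the groups, and the second set control 1 (47.2) apart from control 2 and 3 (-28.8 and -23.3). Values without control 1 are therefore given where they change a result. Among marker genes of cell types, 7 of 12 endothelial markers, 8 of 9 tested neutrophil markers and 6 of 7 erythroid markers were upregulated. Of the 12 markers of adipocyte progenitors and fibroblasts, 7 were downregulated and 1 was upregulated (Ly6a). Of the 15 macrophage markers 2 rose and 2 fell, while 12 had a negative log2 fold change and 3 a positive one (median -0.39). Of the 12 adipocyte markers 2 rose, and 1 B cell marker (Ighm) and 1 T cell marker (Trac) fell. Of the 4 tested platelet markers 1 fell (Pf4). The other 3 had positive log2 fold changes, and DESeq2 called 2 of them higher. Of the 6 tested hepatocyte markers 1 rose and 1 fell, while 5 had a positive log2 fold change (median 1.39). None of the 8 mesothelial markers passed the threshold in edgeR, 1 had an unadjusted p-value under 0.05, and DESeq2 and limma called none of them. None of the 8 epididymal markers reached the filter on low counts.

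The members covered a wide span of levels. Cfd, which encodes factor D, the protease that activates factor B, had a mean FPKM of 10880 ± 1021 in control mice and 13914 ± 4570 in cachectic mice (SD, n = 3), rank 2 and rank 1 among all genes. It supplied between 58.0% and 69.2% of the summed CPM of the 33 members in every mouse, and the members together supplied between 1.499% and 2.54% of all CPM. Behind it in control mice came C3 with a mean FPKM of 373 ± 61.4, Serping1 with 211 ± 24.7, C7 with 171 ± 96.3, C4b with 171 ± 20.3 and Thbd with 150 ± 20.1. C7 and C4b thus started from the same level in control mice, where their ranges overlapped (86.9 to 276 for C7 and 147 to 183 for C4b). In cachectic mice their mean FPKM was 14.9 ± 9.28 and 329 ± 49.9, which is rank 3307 for C7 and rank 92 for C4b, down from 200 and up from 201. At the lower end, F5, F10 and Cfb had a mean FPKM of 0.360, 0.905 and 1.12 in control mice, and their means in cachectic mice were 0.364, 1.097 and 0.595.

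**Figure D2:**
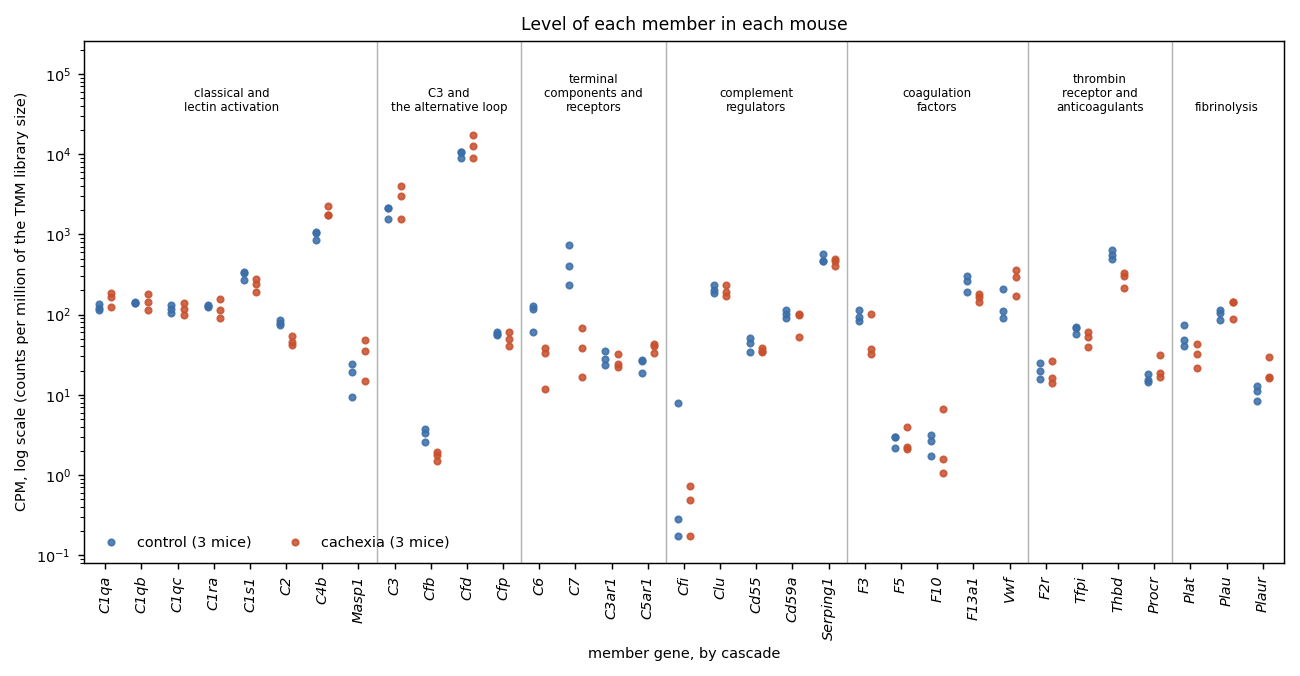
CPM of the 33 members in each of the 6 mice, on a log scale and grouped by cascade. Each point is 1 mouse. Cfd lies highest in every mouse, C7 shows the widest gap between groups, and Cfi is below 1 in all mice except control 1, at 7.98.

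Classical activation held 1 member that rose and 1 that fell. C4b encodes complement C4, the thioester protein that C1s cleaves and that binds covalently to its target (chr17:34728380-34743882, GRCm38). C4b was at 848, 1060 and 1046 CPM in control 1, 2 and 3 and at 1734, 2254 and 1756 CPM in cachexia 1, 2 and 3. Every cachectic mouse was above every control mouse, and the log2 fold change was 0.96 (SE 0.21, adjusted p = 0.020 by edgeR). The adjusted p-value was 0.0676 without control 2 and 0.0851 without control 3, with log2 fold changes of 1.02 and 1.00. Its near-identical neighbor C4a was at 2.27 CPM or less in every mouse.

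C2 encodes the protease that joins C4 in the C3 convertase of the classical pathway (chr17:34862604-34898265). C2 was at 84.5, 73.4 and 79.5 CPM in control mice and at 54.6, 41.6 and 45.9 CPM in cachectic mice. The groups did not overlap, and the log2 fold change was -0.74 (SE 0.14, adjusted p = 0.013 by edgeR). Without control 3 the adjusted p-value was 0.0604 at the same fold change. The partners of the convertase therefore moved in opposite directions: C4b CPM over C2 CPM was 10.03, 14.5 and 13.2 in control mice and 31.7, 54.2 and 38.3 in cachectic mice. C4b, Cfb and C2 lie beside each other on chromosome 17. Cfb and C2, both on the minus strand, are 85 bases apart, and 112 kb holding 5 other protein-coding genes separate Cfb from C4b. A read-through gene model that overlaps both C2 and Cfb, Gm20547, was listed at 0 in all 6 samples. Zbtb12, which overlaps C2 on the other strand, reached at most 7.86 CPM, and because the use of strand in counting is not given in the sources used here, its reads and those of C2 cannot be told apart where they overlap.

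The 3 chains of C1q, the recognition molecule of the classical pathway, are encoded next to each other on chromosome 4. None of them passed the threshold. C1qa was at 115, 120 and 134 CPM in control mice and at 164, 187 and 124 CPM in cachectic mice, with a log2 fold change of 0.37 (SE 0.17, adjusted p = 0.182 by edgeR). Cachexia 3 was the only cachectic mouse within the control range, and without it the log2 fold change was 0.52 with an adjusted p-value of 0.0498. Leaving out any other sample gave adjusted p-values of 0.271 to 0.388 by edgeR. C1qb was at 141, 141 and 144 CPM in control mice and at 142, 183 and 114 CPM in cachectic mice, a log2 fold change of 0.044 (SE 0.18). C1qc was at 105, 119 and 132 CPM against 118, 139 and 97.7 CPM, a log2 fold change of -0.0049 (SE 0.17). The ratio of C1qa FPKM to C1qb FPKM was 0.858 to 0.971 in control mice and 1.07 to 1.21 in cachectic mice, without overlap, while that of C1qc to C1qb overlapped between groups. The summed CPM of the 15 macrophage markers was 1404 to 1793 in control mice and 1134 to 1763 in cachectic mice. Per 1000 CPM of these markers, the 3 chains together were at 228 to 257 CPM in control mice and 289 to 302 CPM in cachectic mice. In bulk tissue, fewer cells of a type and less RNA per cell cannot be told apart, here or for any gene below.

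C1ra and C1s1 encode the C1r and C1s proteases that C1q carries, and lie 6.90 kb apart on chromosome 6. Their log2 fold changes were -0.079 (SE 0.20) and -0.41 (SE 0.19, adjusted p = 0.157 by edgeR), and the groups overlapped in both. C1s1 was at 269, 342 and 331 CPM in control mice and at 275, 190 and 242 CPM in cachectic mice. Masp1, a protease of the lectin pathway, had 1 low mouse in each group. It was at 9.33, 23.8 and 19.1 CPM in control mice and at 14.8, 48.0 and 35.4 CPM in cachectic mice, with a log2 fold change of 0.91 (SE 0.46, adjusted p = 0.203 by edgeR). Rtp4 overlaps Masp1 on the other strand and reached 21.8 CPM, so the reads of these genes cannot be told apart where they overlap.

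None of the 4 members of C3 and the alternative loop passed the threshold in edgeR or in DESeq2, and 1 (Cfb) had an unadjusted p-value under 0.05, which limma on log2(FPKM + 1) called (adjusted p = 0.0490). C3 encodes the protein on which all pathways converge. C3 was at 1571, 2148 and 2113 CPM in control mice and at 2973, 4040 and 1564 CPM in cachectic mice. Cachexia 1 and 2 were above all control mice, and cachexia 3 was below them. The log2 fold change was 0.56 (SE 0.35, adjusted p = 0.300 by edgeR), and 0.86 without cachexia 3 (adjusted p = 0.0692). With any other sample left out it was between 0.23 (without cachexia 2) and 0.63, with adjusted p-values of 0.389 to 0.665 by edgeR.

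Cfd was at 9045, 10637 and 10801 CPM in control mice and at 17594, 12693 and 9077 CPM in cachectic mice. As for C3, cachexia 1 and 2 were above the control range, while cachexia 3 was not, and the log2 fold change was 0.37 (SE 0.32, adjusted p = 0.456 by edgeR). The summed CPM of the 12 adipocyte markers overlapped between the groups, at 27105 to 41035 in control mice and 27059 to 38884 in cachectic mice. Cfb, encoding factor B, was at 2.56, 3.32 and 3.74 CPM in control mice and at 1.75, 1.90 and 1.51 CPM in cachectic mice. Its groups did not overlap, but the log2 fold change of -0.89 (SE 0.32) had an adjusted p-value of 0.0914 by edgeR. Cfp, which encodes properdin, the stabilizer of the alternative convertase, overlapped between groups with a log2 fold change of -0.21 (SE 0.16).

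C6 and C7 showed the most negative log2 fold changes of the members. They encode terminal components that assemble with C5b as the membrane attack complex is built, and they are neighbors on chromosome 15, 174 kb apart with 1 protein-coding gene, Mroh2b, between them (C6 at chr15:4727175-4814967 and C7 at chr15:4988762-5063740). C7 was at 746, 236 and 405 CPM in control 1, 2 and 3 and at 37.9, 67.5 and 16.8 CPM in cachexia 1, 2 and 3. The lowest control mouse was above the highest cachectic mouse, with a log2 fold change of -3.50 (SE 0.59, adjusted p = 0.0088 by edgeR). C7 passed the threshold with each of the 6 samples left out, at log2 fold changes between -4.08 and -2.98.

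C6 was at 130, 61.0 and 118 CPM in control mice and at 11.7, 32.8 and 38.8 CPM in cachectic mice, without overlap, and its log2 fold change was -1.89 (SE 0.45, adjusted p = 0.027 by edgeR). Its adjusted p-value was 0.0616 without control 1, 0.0878 without control 3 and 0.0580 without cachexia 2, at log2 fold changes of -1.70, -1.78 and -2.03. The levels of the pair did not follow each other within the cachectic group: C7 was lowest in cachexia 3 and C6 in cachexia 1. Of the genes for the other terminal components, Hc, the mouse gene for C5, was at 0.197 CPM or less, C8a at 0.233 CPM or less, C8b at 0.0614 CPM or less and C9 at 0.590 CPM or less in every mouse, and none of these was tested. C8g was tested, at 3.11, 1.95 and 2.83 CPM in control mice and 5.25, 3.32 and 2.95 CPM in cachectic mice, with a log2 fold change of 0.54 (SE 0.36, adjusted p = 0.322 by edgeR).

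**Figure D3:**
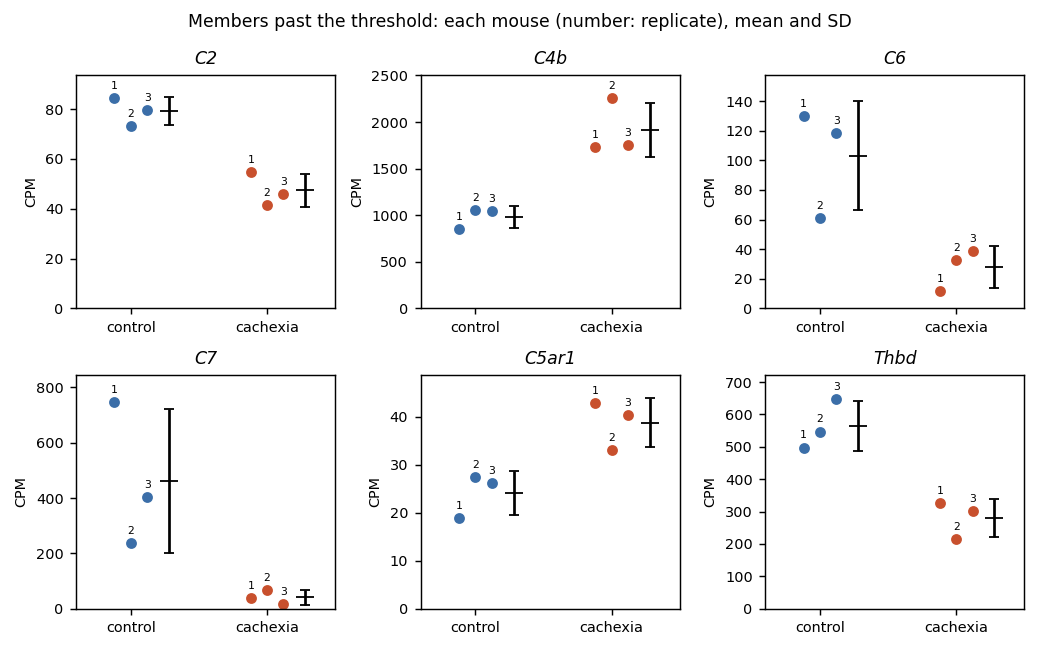
CPM of the 6 members that passed the threshold in each mouse, numbered by replicate, with the group mean and SD (n = 3) at the right of each group. The vertical axes start at 0. In each panel the groups do not overlap: C4b and C5ar1 are higher in cachexia, and C2, C6, C7 and Thbd are lower.

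The sequences upstream of C6 and C7 are shown because these neighbors fell together. They are the 200 bases from base -250 to base -51 before the transcription start in RefSeq, on build GRCm38.p6 and written 5′ to 3′ on the strand of the gene. The window of C6 is chr15:4726960-4727159 on the plus strand and that of C7 is chr15:5063824-5064023 on the minus strand, and neither overlaps an annotated exon. Capitals mark a match to the STAT dimer motif TTCNNNGAA.
C6: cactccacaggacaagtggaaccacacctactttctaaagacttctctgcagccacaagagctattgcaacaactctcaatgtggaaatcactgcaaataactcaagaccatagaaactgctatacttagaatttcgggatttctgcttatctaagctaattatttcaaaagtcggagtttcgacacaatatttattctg
C7: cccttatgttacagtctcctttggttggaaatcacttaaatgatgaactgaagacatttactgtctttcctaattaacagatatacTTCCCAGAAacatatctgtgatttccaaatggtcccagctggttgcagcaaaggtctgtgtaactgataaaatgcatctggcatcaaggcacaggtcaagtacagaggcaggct
C7 held 1 match, which begins 164 bases before the start, and C6 held none.

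The RefSeq table held 24 promoter entries of 300 bases for 21 of the 33 members, and both strands were searched for 4 motifs. TTCNNNGAA was present in 2 of the 24 entries (C7 and C1ra) and in 8.30% of all 32851 entries. The interferon response element, a pair of GAAA with 2 bases of any kind between them, was present in 1 (Cd59a) and in 3.44% of all entries. The C/EBP motif TTGCNNAA was present in 5 and in 10.8% of all, and the kappaB motif, GGGA followed by 4 bases of any kind and CC, in 12 and in 20.7% of all. The 2 entries of C1s1 overlap and share 1 kappaB match, which is therefore counted in both. In Procr the C/EBP match overlapped a kappaB match. The entry with the most kappaB matches was that of C3, with 3. Neither C6 nor C5ar1 matched any of the 4 motifs. These counts describe letters in the window and not binding.

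Stromal cells are a known source of C7, and 7 of the 12 markers of progenitors and fibroblasts were downregulated. The summed CPM of the 12 markers was 6725 to 8045 in control mice and 2871 to 3993 in cachectic mice. Among cachectic mice the sum was highest in cachexia 1, where C6 was lowest, and lowest in cachexia 3, where C6 was highest and C7 lowest. The 7 that fell were Pi16, Col1a1, Col1a2, Col3a1, Lum, Dpt and Fbn1, with log2 fold changes between -3.18 and -1.63. Dcn was at -0.059 and Cd34 at -0.027, and Ly6a was upregulated. Per 1000 CPM of this list, C7 was at 35.1 to 92.7 CPM in control mice and 5.85 to 21.3 CPM in cachectic mice, without overlap. C6 on the same scale overlapped, at 9.08 to 16.1 CPM and 2.94 to 13.5 CPM. The part of these cells in the change of C6 and C7 was not tested.

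Of the anaphylatoxin receptors, through which the small C3 and C5 fragments act on leukocytes, C5ar1 (chr7:16246743-16259540) rose. C5ar1 was at 18.9, 27.4 and 26.1 CPM in control mice and at 42.9, 33.04 and 40.3 CPM in cachectic mice, a log2 fold change of 0.68 (SE 0.18, adjusted p = 0.038 by edgeR). The groups did not overlap. The call rested on all the samples except cachexia 2: with each of the other 5 left out, the adjusted p-value was between 0.0716 (without control 2) and 0.106 (without cachexia 1), including 0.0768 without control 1, 0.103 without control 3 and 0.0799 without cachexia 3. Neutrophils carry this receptor, and the summed CPM of the 10 neutrophil markers was 33.1 to 50.3 in control mice and 256 to 732 in cachectic mice, with Ly6g at 0 in every control mouse. Cachexia 3 had the highest neutrophil sum but not the highest C5ar1. Macrophages also carry this receptor, and the summed CPM of their 15 markers overlapped, at 1404 to 1793 in control mice and 1134 to 1763 in cachectic mice. The part of either cell type in the rise of C5ar1 was not tested. C3ar1, the receptor for the C3 fragment, overlapped between groups, at 23.7, 27.9 and 35.02 CPM in control mice and 24.3, 32.1 and 21.96 CPM in cachectic mice.

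The regulators of complement showed small changes. None of the 4 tested passed the threshold in edgeR, DESeq2 or limma, and none had an unadjusted p-value under 0.05. Serping1, encoding the inhibitor of C1r and C1s, had a log2 fold change of -0.11 (SE 0.17). Clu, encoding clusterin, which binds the terminal complex, was at -0.051 (SE 0.17). Cd55, which speeds the decay of convertases, was at -0.26 (SE 0.16), and Cd59a, which blocks C9 insertion, was at -0.28 (SE 0.25). The groups overlapped in each of the 4. Cfi, encoding the protease that inactivates C3b and C4b, was at 7.98 CPM in control 1 and between 0.172 and 0.721 CPM in the other 5 mice, and was not tested. The summed CPM of the 8 epididymal markers was also highest in control 1, at 5.12, and lay between 0.676 and 1.52 in the other mice. The part of epididymal tissue in the Cfi value was not tested.

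Among coagulation factors, none of the 5 members passed the threshold in edgeR, 2 (F13a1 and Vwf) had an unadjusted p-value under 0.05, and DESeq2 called these 2 and limma none. Vwf encodes the factor that tethers platelets and carries factor VIII. It was at 206, 110 and 89.4 CPM in control mice and at 295, 357 and 171 CPM in cachectic mice. Control 1 lay above cachexia 3, and the log2 fold change was 1.02 (SE 0.37, adjusted p = 0.093 by edgeR), or 1.46 without control 1 (adjusted p = 0.0295). Leaving out any other sample gave adjusted p-values of 0.0575 to 0.252 by edgeR. F13a1 encodes the subunit of factor XIII that crosslinks fibrin. It was at 189, 300 and 264 CPM in control mice and at 164, 145 and 180 CPM in cachectic mice, without overlap, with a log2 fold change of -0.63 (SE 0.20, adjusted p = 0.063 by edgeR). Without control 1 its adjusted p-value was 0.0248, and without any other sample it was between 0.0816 and 0.194 by edgeR. Macrophages also express F13a1. Of their 15 markers Mrc1 and Folr2 fell while Cd163 and Mertk rose, and 12 had a negative and 3 a positive log2 fold change.

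F3 encodes tissue factor, the trigger of coagulation. It was at 83.6, 92.7 and 115 CPM in control mice and at 102, 32.2 and 37.7 CPM in cachectic mice. Cachexia 1 lay inside the control range and the other cachectic mice lay below it. The log2 fold change was -0.76 (SE 0.41, adjusted p = 0.233 by edgeR), and -1.47 without cachexia 1 (adjusted p = 0.0093). With any other sample left out it was between -0.86 and -0.47, with adjusted p-values of 0.256 to 0.456 by edgeR. F5 and F10, encoding factors V and X, were at 6.56 CPM or less in every mouse, and their log2 fold changes were 0.027 (SE 0.37) and 0.29 (SE 0.67).

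Of the 4 genes of the thrombin receptor and the anticoagulants of the vessel wall, Thbd fell and the others did not pass the threshold. Thbd encodes thrombomodulin, the surface protein that turns thrombin into an activator of protein C (chr2:148404466-148408188). Thbd was at 498, 547 and 647 CPM in control mice and at 327, 215 and 302 CPM in cachectic mice, without overlap, with a log2 fold change of -1.004 (SE 0.21, adjusted p = 0.017 by edgeR). The adjusted p-value was 0.0545 without control 2 and 0.0777 without control 3, at log2 fold changes of -1.03 and -0.90. The summed CPM of the 12 endothelial markers was higher in cachectic mice, at 3040 to 4042 against 1866 to 1981 in control mice. Per 1000 CPM of these markers, Thbd was at 267, 276 and 343 CPM in control mice and at 96.1, 53.1 and 99.2 CPM in cachectic mice. Mesothelial cells also carry thrombomodulin, and the summed CPM of their 8 markers overlapped. It was at 361, 423 and 392 in control mice and at 374, 198 and 430 in cachexia 1, 2 and 3. Cachexia 2 had the lowest sum and the lowest Thbd. Cachexia 3 had the highest sum of all mice, with Thbd below every control mouse. The part of either cell type in the change of Thbd was not tested.

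Tfpi, encoding the inhibitor of tissue factor and factor Xa, had a log2 fold change of -0.33 (SE 0.17, adjusted p = 0.223 by edgeR). Per 1000 CPM of endothelial markers it was at 30.4 to 36.7 CPM in control mice and 9.88 to 17.9 CPM in cachectic mice. Procr, the endothelial protein C receptor that presents protein C to thrombomodulin, had a log2 fold change of 0.47 (SE 0.25, adjusted p = 0.223 by edgeR), and cachexia 3 was highest at 31.3 CPM. On the endothelial scale Procr and Vwf overlapped between groups. F2r, the thrombin receptor PAR1, was at -0.082 (SE 0.28).

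**Figure D4:**
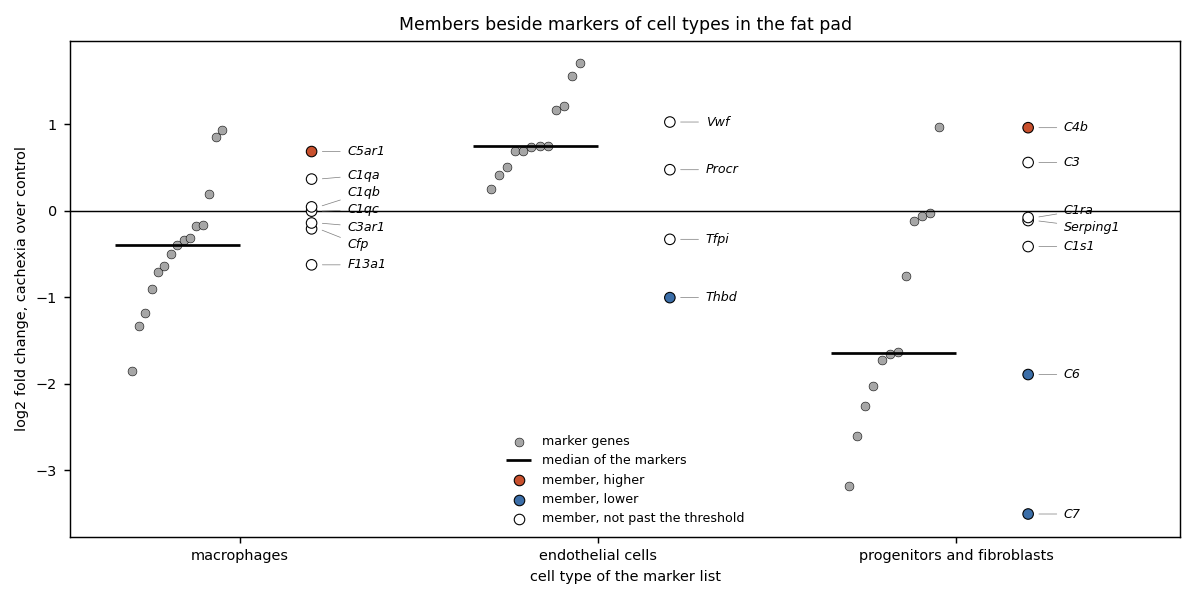
Log2 fold change of cachectic over control mice for markers of 3 cell types (gray points, with the median as a line) and, at the right of each, members that these cells are known to express. Thbd lies below every endothelial marker, and C6 and C7 lie among or below the fallen progenitor and fibroblast markers while C4b and C3 lie above 0.

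None of the 3 members of fibrinolysis passed the threshold in edgeR. Plat and Plaur had an unadjusted p-value under 0.05, and DESeq2 called Plaur and limma neither. Plat encodes the tissue-type plasminogen activator and Plau the urokinase type. Plat was at 74.6, 47.7 and 40.9 CPM in control mice and at 42.5, 32.4 and 21.5 CPM in cachectic mice, a log2 fold change of -0.76 (SE 0.30, adjusted p = 0.114 by edgeR). Plau had a log2 fold change of 0.31 (SE 0.21, adjusted p = 0.345 by edgeR). The ratio of Plau FPKM to Plat FPKM was 3.01, 6.27 and 6.66 in control mice and 8.91, 11.5 and 10.8 in cachectic mice. Plaur, the urokinase receptor of leukocytes and other cells, was at 8.28, 12.8 and 11.05 CPM in control mice and at 16.1, 16.6 and 29.7 CPM in cachectic mice. Its groups did not overlap, and its log2 fold change was 0.96 (SE 0.28, adjusted p = 0.054 by edgeR). Cachexia 3, the highest for Plaur, was also the highest for the neutrophil markers, whose part was not tested.

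Beyond the members, 35 other complement genes and 44 other coagulation and fibrinolysis genes were examined. Of the former, 20 were tested, 1 rose and 2 fell, so 15% were called, beside 17.6% of all genes tested. C1qbp, a mitochondrial protein that also binds C1q, was at 53.7 to 59.4 CPM in control mice and 107 to 121 CPM in cachectic mice (log2 fold change 1.01, SE 0.12). Itgax, a subunit of complement receptor 4, fell with a log2 fold change of -1.86 (SE 0.49), and Vtn, encoding vitronectin, fell with -0.71 (SE 0.13). Of the latter, 22 were tested, 3 rose and 2 fell, so 22.7% were called, beside the same 17.6%. Thbs1, encoding thrombospondin-1 of platelets and matrix, was at 39.5, 168 and 73.5 CPM in control mice and at 1459, 292 and 1201 CPM in cachectic mice (log2 fold change 3.39, SE 0.71). Kng2, a kininogen, rose from at most 1.20 CPM to between 2.92 and 4.46 CPM, and Pros1, encoding the anticoagulant protein S, rose with a log2 fold change of 0.61 (SE 0.14). Anxa2, a cell-surface receptor for plasminogen and its tissue activator, fell with -1.63 (SE 0.38), and Serpine2, an inhibitor of thrombin and plasminogen activators, fell with -1.12 (SE 0.16). The complement genes that fell numbered 0 without control 2 or control 3 and 1 without control 1, cachexia 1 or cachexia 3. The coagulation and fibrinolysis genes that rose numbered 0 without control 3, 1 without cachexia 2 and 6 without cachexia 1, and those that fell numbered 1 without control 2, control 3 or cachexia 1. Calls over all genes were fewer with any sample left out, at 828 (without control 3) to 2339 (without cachexia 3) against 2821.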

How the data were processed

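RNA-seq of eWAT from 3 cachectic and 3 control mice was analyzed, grouped by label. The authors removed low-quality reads, aligned with Hisat2, counted with featureCounts 1.5.0-p3 and deposited raw counts per gene. The deposited FPKM values were derived by the authors from count and gene length. The processing notes name mm9, but all 33 members have the coordinates of GENCODE M21, an annotation of GRCm38. The deposited table of the authors' DESeq2 1.16.1 comparison (log2 fold changes, p-values) and its 8 columns of per-sample or group values were not used.

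Counts were tested with edgeR 4.0.16 in R 4.3.3 (filterByExpr, TMM, quasi-likelihood, Benjamini-Hochberg). The standard error is the log2 fold change divided by the square root of F. The samples are taken as separate mice, which the labels do not say for each, so p-values measure the spread between these samples. An exact permutation test of 3 against 3 cannot go below 0.1 and was not used. On simulated counts edgeR recovered 189 of 195 changed genes among 15775 (96.9%), with 4.06% of calls false. Recovery at the fold changes of the members, and at their spread between mice, was not tested. DESeq2 1.42.0, limma 3.58.1 (log2 FPKM, pseudocounts 1 and 0.1), other size factors, filters and left-out samples were alternatives.

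The members and all lists were chosen with earlier results of these data known. Named are all members, their overlapping or near-identical genes, the called genes of the pathway lists with the largest change (up to 6 per direction), and the markers needed to describe a list. Other genes were named after their values were seen. Members were matched to RefSeq promoters by symbol.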

Additional observations from a re-analysis of the deposited data

How the results depend on the processing

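Across 15 other settings the 6 called members kept their direction, and C7 kept its call in all of them. With 1 sample left out in turn, the members called higher numbered between 0 and 2 and those called lower between 1 and 5. The other complement genes called lower numbered between 0 and 2, and the other coagulation and fibrinolysis genes called higher between 0 and 6 and lower between 1 and 2. All genes called fell from 2821 to 828 without control 3 and 1312 without control 2, and DESeq2 called 3884. DESeq2 called 4 members and 2 other complement genes higher. With calls limited to absolute log2 fold changes of 1 or more, 0 members were higher and 1 other complement gene was lower. Without the filter, 6 other coagulation and fibrinolysis genes were higher. The labels state no pairing, and replicate numbers were treated as names. Deviations of same-numbered samples had correlations of -0.0031, -0.011 and 0.0085. With 3 samples per group these cannot show whether samples were paired. With a replicate block 1881 genes were called, among them 1 other coagulation and fibrinolysis gene higher. The block gave log2 fold changes of 0.96 (C4b, adjusted p = 0.0521), 0.69 (C5ar1, adjusted p = 0.0802) and -1.95 (C6, adjusted p = 0.0520), past the threshold no longer, and of 0.86 (Masp1), -0.77 (Plat) and 1.05 (Vwf), now past it. Changes of sign, 19 in all, touched 8 members, none of them called. Left-out samples gave -0.15 to 0.20 for C1qb, -0.14 to 0.12 for C1qc, -0.31 to 0.093 for C1ra, -0.31 to 0.017 for C3ar1, -0.19 to 0.050 for Clu, -0.33 to 0.20 for F5, -0.91 to 0.70 for F10 and -0.41 to 0.099 for F2r. Library totals gave 0.053 for C1qc, limma with a pseudocount of 0.1 gave -0.020 for F5 and -0.089 for F10 and with 1 gave -0.00017 for F5, and the block gave -0.017 for F5 and -0.14 for F10. The cause of these shifts was not tested. Under library totals the median of all genes moved to 0.046. The filter on low counts removed Cfi, with 159, 3 and 5 reads in control mice and 3, 8 and 11 reads in cachectic mice. Counts were also low for Cfb, F5 and F10, with 18 to 60 reads in the first mouse of each group.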

Other observations

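The 3 fibrinogen chain genes, whose products form the fibrin clot and are usually made in liver, were too low for the filter and were looked at after their values were seen. Fga had 1, 0 and 0 reads in control mice and 7, 12 and 42 reads in cachectic mice. Fgb had 0 reads in each control mouse and 6, 24 and 34 in cachectic mice, and Fgg had 0 in each control mouse and 3, 16 and 22 in cachectic mice. Without the filter on low counts all 3 passed the threshold in edgeR, with adjusted p-values of 0.0073, 0.0042 and 0.012. Alb, the hepatocyte gene for albumin, was at 4.57 to 10.7 CPM in control mice and 8.81 to 36.1 CPM in cachectic mice, and Apoa1 at 0.0567 to 0.652 CPM and 2.45 to 7.67 CPM, each highest in cachexia 3 as were the fibrinogen chains. The summed CPM of all 8 hepatocyte markers overlapped, at 264 to 287 in control mice and 235 to 550 in cachectic mice. It was lowest in cachexia 2, and Alb and Apoa1 were a small part of it. Of the 6 tested markers 1 rose and 1 fell in edgeR, while 5 had a positive log2 fold change (median 1.39). DESeq2 called 3 of these markers higher and 1 lower. The part of liver or plasma RNA in the reads of the fibrinogen genes, Alb and Apoa1 was not tested.

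Several low genes of the lists were high in control 1 alone, as Cfi was, and were picked for this after their values were seen. Proc, encoding protein C, was at 3.76 CPM in control 1 and at most 0.113 CPM in the other mice. Cpn1, encoding a subunit of carboxypeptidase N, was at 2.71 CPM and at most 0.0656 CPM. The epididymal marker Adam7 was at 3.06 CPM and at most 0.991 CPM. The keratin gene Krt18, which is among the mesothelial markers summed beside Thbd, was at 43.2 CPM and at most 12.8 CPM.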
